A study of Mus musculus with 6 samples.

Results

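The genes described here are 8 genes that astrocytes use to handle water, potassium, bicarbonate and cell-to-cell coupling: Aqp4, Kcnj10, Atp1b2, Gja1, Gjb6, Mlc1, Hepacam and Slc4a4. They were chosen by name, and their probes were found through the RefSeq accession that the array files give for each probe. This gave 14 of the 41174 non-control probes on the array, and 12 of them, from 7 genes, passed the filter on dim probes that left 26428 probes for the test. The tested arrays came from primary cortical astrocytes of C57BL/6 mouse fetuses (embryonic day 18), bought as a culture and transfected 3 weeks after plating with a mixture (80 nM) of 1 part miR-29a precursor, 2 parts miR-29b precursor and 1 part miR-29c precursor. The control arrays came from the same kind of culture given a negative control precursor at 80 nM. Cells of both groups were harvested after 48 h, and the protocol puts the efficiency of transfection above 90%. There are 3 arrays in each group (one-colour Agilent Whole Mouse Genome), described as triplicate RNA extractions. Nothing in the labels names separate cultures, so the spread that the p-values rest on may be technical.

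Astrocytes take up the potassium and glutamate that neurons release, let water follow through aquaporins at the end-feet that touch blood vessels, and spread the load to neighbouring astrocytes through gap junctions. The inward rectifier channel and the sodium pump carry the potassium, connexins form the junctions, and Mlc1 with its partner Hepacam sits at astrocyte contacts and takes part in volume control. MicroRNAs lower messenger RNAs that pair with their seed, the bases 2 to 8 of the mature strand. The mature strands of the transfected family are shown because they are the agent that separates the groups. They are the mouse entries of RefSeq (GRCm38.p6) under the names that the labels give for the human precursors, with the seed in capitals:
mmu-miR-29a-3p: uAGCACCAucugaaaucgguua
mmu-miR-29b-3p: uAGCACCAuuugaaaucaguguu
mmu-miR-29c-3p: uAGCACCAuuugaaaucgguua
All 3 share the seed. Counted from 1 at the 5′ end, miR-29c differs from miR-29a by C10U, and miR-29b differs from miR-29a by C10U, G18A, U21G and A22U and is 1 base longer (23 against 22). Mir29a lies at chr6:31062673-31062694 on the minus strand, Mir29c at chr1:195037600-195037621 on the plus strand, and miR-29b has copies beside both, at chr6:31063025-31063047 on the minus strand and chr1:195037091-195037113 on the plus strand. Whether the member transcripts carry matches to this seed was not tested.

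Levels are given as log2 of the processed signal relative to the 75th percentile of the array, so that 0 is the level of that percentile, and they are not compared between probes. Fold changes are miR-29 minus control on the log2 scale, tested with limma over all 26428 probes with Benjamini-Hochberg adjustment at 0.05. Between 61.9% and 66.8% of probes were well above background per array, 0 spots were saturated, and the 75th percentile was a signal of 474 to 626. The first control replicate was on slide 1 with all miR-29 arrays, and the other 2 control replicates were on slide 2.

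Of the 12 tested member probes 3 were lower, 1 was higher and 8 did not pass. The share that passed was 33.3% of the member probes, against 57.5% of all probes (23.5% lower and 34% higher). When arrays were scaled to spike-in RNA instead, the order of these shares turned, to 66.7% of the member probes against 53.4% of all probes. Gja1 (connexin 43) and Atp1b2 (the glial beta subunit of the sodium pump) fell by 0.35 and 0.33, and the bicarbonate cotransporter gene Slc4a4 gave probes that passed in opposite directions. Aqp4 (the water channel), Kcnj10 (the potassium channel Kir4.1), Mlc1 and Hepacam did not pass on any probe. Gjb6 (connexin 30) was not above background on any array. No member probe reached a 2-fold change, against 7.09% of all probes. The median size of the fold change, without its sign, was 0.16 over the member probes and 0.31 over all tested probes, with median standard errors (SE) of 0.083 and 0.075. With its sign, the median was -0.15 over the member probes and 0.061 over all tested probes. In bulk RNA, fewer cells of a type and less RNA per cell cannot be told apart.

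**Figure D1:**
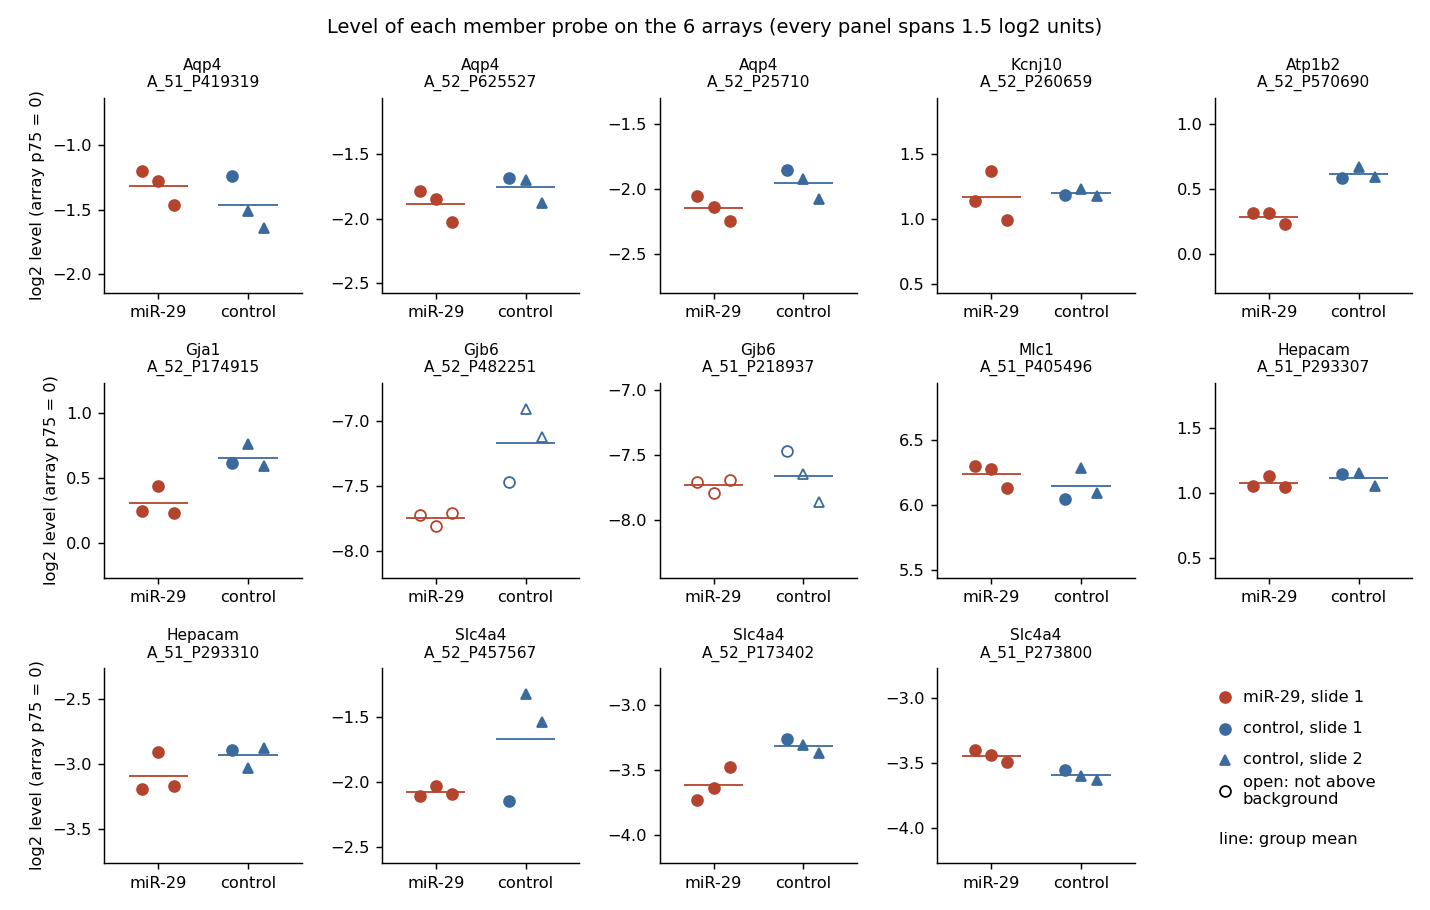
Level of each of the 14 member probes on each array, as log2 of the processed signal relative to the array's 75th percentile; every panel spans 1.5 log2 units, lines are group means, and open symbols were not above background. The miR-29 and control points are apart for Atp1b2, Gja1 and Slc4a4 probes A_52_P173402 and A_51_P273800, and mixed or close for the other detected probes; control replicate 1 of Slc4a4 probe A_52_P457567 lies with the miR-29 arrays.

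Aqp4 encodes the main water channel of astrocyte end-feet and was read by 3 probes, all above background on the 6 arrays. Probe A_51_P419319 had levels of -1.20, -1.28 and -1.46 in the miR-29 arrays, against -1.24, -1.51 and -1.64 in the control arrays. The groups overlapped, with control replicate 1 among the miR-29 values, and the fold change was 0.15 (SE 0.122, limma adjusted p = 0.328). Within slide 1 it was -0.076, so its sign turned. Probe A_52_P625527 had -1.79, -1.85 and -2.03 in the miR-29 arrays, against -1.68, -1.70 and -1.88 in the control arrays. Here the miR-29 values were on the whole the lower ones, with overlap, and the fold change was -0.13 (SE 0.0876, adjusted p = 0.228). Probe A_52_P25710 had -2.05, -2.14 and -2.25 in the miR-29 arrays, against -1.85, -1.92 and -2.08 in the control arrays. Its fold change was -0.20 (SE 0.0822, adjusted p = 0.0824), and only miR-29 replicate 1 lay within the control range. It passed without control replicate 3 (-0.26, adjusted p = 0.044).

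Within arrays the Aqp4 probes were set against each other. The log2 ratio of A_51_P419319 to A_52_P25710 within an array, which no scaling of arrays can alter, averaged 0.83 ± 0.043 in the miR-29 arrays and 0.48 ± 0.11 in the control arrays (SD, n = 3 each). Its change of 0.35 separated the groups (two-sided exact permutation p = 0.1, the smallest that 3 against 3 allows; 0.139 after adjustment over 25 such ratios). Within slide 1 the change was 0.22, and with another background correction (normexp) it was 0.21, so its size depended on both. The ratio of A_52_P625527 to A_52_P25710 changed by 0.063 with overlapping groups. All 3 probes carry the same accession, and no source used here says which transcript end each of them reads.

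Kcnj10 encodes Kir4.1, an inward rectifier potassium channel of astrocytes. Its 1 probe had levels of 1.14, 1.37 and 0.99 in the miR-29 arrays, against 1.18, 1.23 and 1.17 in the control arrays. The miR-29 values lay on both sides of the close control values, and the fold change was -0.028 (SE 0.0997, adjusted p = 0.824). As a linear ratio of miR-29 to control this was 0.981 (95% interval 0.829 to 1.16).

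Atp1b2 encodes the beta subunit of the sodium pump that was first described as an adhesion molecule on glia. Its 1 probe had levels of 0.32, 0.31 and 0.23 in the miR-29 arrays, against 0.59, 0.67 and 0.59 in the control arrays. The groups did not overlap, and Atp1b2 fell by 0.33 (SE 0.0528, adjusted p = 0.0028), a linear ratio of 0.797 (95% interval 0.729 to 0.871). The share of all probes whose groups did not overlap was 65.8%. Against the control array of slide 1 the value was -0.30, which still passed in a fit with slide blocks (adjusted p = 0.0208; 44.6% of all probes passed there). It also passed without any single array (-0.34 to -0.30, adjusted p 0.00394 to 0.0133).

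Gja1 encodes connexin 43, the main gap junction protein of astrocytes. Its 1 probe is printed as 10 spots per array, all above background, so its value is an average of 10 readings. The levels were 0.25, 0.44 and 0.23 in the miR-29 arrays, against 0.62, 0.77 and 0.59 in the control arrays. Each miR-29 array was below each control array, and Gja1 fell by 0.35 (SE 0.0819, adjusted p = 0.0118), a linear ratio of 0.784 (95% interval 0.683 to 0.9). The SD over the 10 spots of an array was 0.0327 to 0.0513 in the miR-29 arrays and 0.0296 to 0.0445 in the control arrays, and the SD between arrays was 0.118 in the miR-29 group and 0.0925 in the control group. The fall passed without any single array (-0.42 to -0.30). Against the control array of slide 1 it was -0.31 and did not pass in the fit with slide blocks (adjusted p = 0.0844; 18.7% of all probes were lower and 25.9% higher there).

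Gjb6 encodes connexin 30, the second astrocyte connexin, which rises late in brain development. Neither of its 2 probes was well above background on any array. Probe A_52_P482251 had processed signals of 2.26, 2.48 and 2.73 in the miR-29 arrays, against 2.68, 3.95 and 4.48 in the control arrays. Probe A_51_P218937 had 2.29, 2.50 and 2.76 in the miR-29 arrays, against 2.69, 2.36 and 2.69 in the control arrays. With both groups below background no fold change is given, and a low level of Gjb6 could not be told from none.

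Mlc1 encodes a membrane protein of astrocyte junctions that is mutated in a human leukoencephalopathy with cysts. Its 1 probe had levels of 6.30, 6.27 and 6.13 in the miR-29 arrays, against 6.05, 6.29 and 6.09 in the control arrays. The groups overlapped, and the fold change was 0.093 (SE 0.0847, adjusted p = 0.377), a linear ratio of 1.07 (95% interval 0.924 to 1.23). Hepacam encodes GlialCAM, the adhesion protein that brings Mlc1 to cell contacts. Its brighter probe, A_51_P293307, had 1.05, 1.13 and 1.04 in the miR-29 arrays, against 1.14, 1.15 and 1.05 in the control arrays. The fold change was -0.040 (SE 0.0545, adjusted p = 0.545), a linear ratio of 0.972 (95% interval 0.887 to 1.07), which is the narrowest interval among the members that did not pass. The other probe, A_51_P293310, had -3.20, -2.91 and -3.17 in the miR-29 arrays, against -2.89, -3.03 and -2.88 in the control arrays. It gave -0.16 (SE 0.093, adjusted p = 0.186), and without miR-29 replicate 2, its highest miR-29 array, it passed (-0.25, adjusted p = 0.0414).

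Slc4a4 encodes the electrogenic sodium bicarbonate cotransporter NBCe1, which couples astrocyte pH to membrane potential. Its 3 probes carry 1 accession and disagreed. Probe A_52_P173402 had -3.73, -3.64 and -3.48 in the miR-29 arrays, against -3.26, -3.31 and -3.37 in the control arrays. The groups did not overlap, and this probe fell by 0.30 (SE 0.0773, adjusted p = 0.0167). The call was lost without miR-29 replicate 1 (-0.25, adjusted p = 0.0524), without miR-29 replicate 2 (-0.29, adjusted p = 0.0565) and with normexp (-0.11, adjusted p = 0.262).

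Probe A_51_P273800 of Slc4a4 had -3.40, -3.43 and -3.49 in the miR-29 arrays, against -3.55, -3.60 and -3.63 in the control arrays. It rose by 0.15 (SE 0.0516, adjusted p = 0.045), close to the threshold. The call was lost without any single array other than control replicate 1 and under most other settings, and the sign turned with spike-in scaling (-0.088). Probe A_52_P457567 had -2.11, -2.03 and -2.09 in the miR-29 arrays, against -2.14, -1.32 and -1.54 in the control arrays. Control replicate 1, on the slide of the miR-29 arrays, was the lowest of the 6 and the other controls the highest. The fold change was -0.41 (SE 0.204, adjusted p = 0.13), -0.65 without control replicate 1 (adjusted p = 0.00158) and 0.066 within slide 1. The part of the slide in this value was not tested. The log2 ratio of A_52_P173402 to A_51_P273800 within an array averaged -0.18 ± 0.17 in the miR-29 arrays and 0.28 ± 0.019 in the control arrays (SD, n = 3 each). It changed by -0.45 with no overlap (two-sided exact permutation p = 0.1, the smallest possible; 0.139 adjusted over the 25 ratios) and by -0.47 within slide 1, but by -0.18 with normexp.

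**Figure D2:**
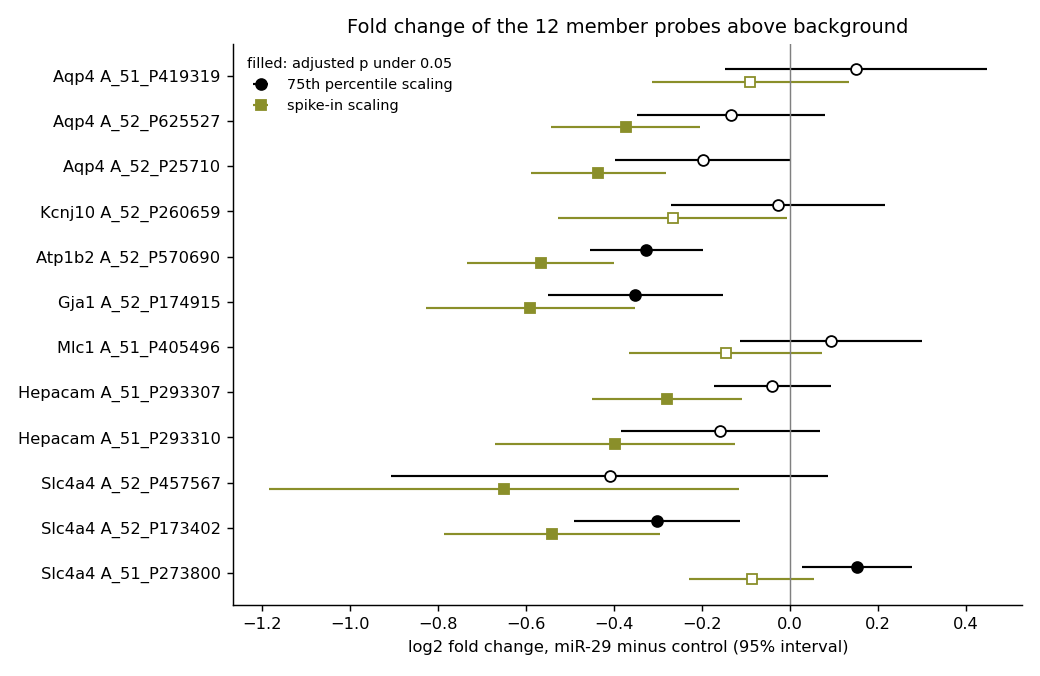
Log2 fold change, miR-29 minus control, with its 95% interval for the 12 tested member probes, with arrays scaled to their 75th percentile (circles) and to spike-in RNA (squares); filled symbols have a limma adjusted p under 0.05. The squares are shifted by -0.239 from their circles, and 8 of the squares, against 4 of the circles, are filled.

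The direction of the small changes depended on the scaling. The labels' protocol added control RNA in a fixed amount per amount of total RNA, and scaling to the 6 spike-in types above background moved the fold change of every probe by -0.239. The median of all probes then was -0.18, against 0.061 before. With this scaling 8 member probes from 5 genes passed as lower and 0 as higher, beside 53.4% of all probes passing (38.5% lower and 14.9% higher). Gja1 then gave -0.59 (SE 0.0993, adjusted p = 0.00308) and Atp1b2 -0.57 (SE 0.0699, adjusted p = 0.000832). Aqp4 passed on probes A_52_P625527 (-0.37) and A_52_P25710 (-0.44), and Hepacam on both of its probes (-0.28 and -0.40). Kcnj10 (-0.27, adjusted p = 0.0763) and Mlc1 (-0.15, adjusted p = 0.211) did not pass with either scaling. Relative to the median of all probes the order of the members is the same under both scalings.

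Ratios between members within an array do not depend on the scaling. Gja1 and Atp1b2, whose only probes passed as lower in these same data, were set against the other members. A fall relative to members that did not pass follows largely from that choice and restates those calls. How often ratios between other probes separate the groups was not tested. The ratio of Gja1 to Kcnj10 had a mean log2 value of -0.86 ± 0.089 in the miR-29 arrays and -0.53 ± 0.064 in the control arrays (SD, n = 3 each), a change of -0.32 with no overlap. Gja1 also changed by -0.44 relative to Mlc1, by -0.31 relative to Hepacam probe A_51_P293307 and by -0.50 relative to Aqp4 probe A_51_P419319, with no overlap in any of them. Relative to the other Aqp4 probes its change was smaller, -0.22 (A_52_P625527, no overlap) and -0.15 (A_52_P25710, with overlap), and relative to Hepacam probe A_51_P293310 it was -0.19 (no overlap). The changes of Atp1b2 relative to Kcnj10, Mlc1, Hepacam probe A_51_P293307 and Aqp4 probe A_51_P419319 were -0.30, -0.42, -0.29 and -0.48, again with no overlap. Relative to Aqp4 probes A_52_P625527 and A_52_P25710 they were -0.19 (no overlap) and -0.13 (with overlap), and relative to Hepacam probe A_51_P293310 -0.17 (with overlap). Relative to Slc4a4 probe A_52_P457567 Gja1 changed by 0.059 and Atp1b2 by 0.083, with overlapping groups. Relative to A_52_P173402 they changed by -0.049 and -0.025, also with overlap, and relative to A_51_P273800 by -0.50 and -0.48 with no overlap. Within slide 1 the sign relative to A_52_P457567 turned, to -0.38 for Gja1 and -0.37 for Atp1b2. The changes relative to Aqp4 probe A_51_P419319 were smaller there, -0.24 and -0.22. Those relative to Kcnj10, Mlc1 and Hepacam probe A_51_P293307 kept their sign there. With normexp the changes relative to A_52_P173402 were larger, -0.23 and -0.19. The ratios to the other Aqp4 and Hepacam probes and to Slc4a4 probes A_52_P173402 and A_51_P273800 were added after the values were seen and were not tested. Of the tested ratios, those with no overlap reached the smallest two-sided exact permutation p of 0.1 (0.139 adjusted over 25 ratios), which cannot pass 0.05. The ratio of Gja1 to Atp1b2 changed by -0.024 with overlapping groups (exact p = 0.7).

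Among all tested probes, the fold change of Gja1 lay at percentile 20.3 and that of Atp1b2 at percentile 21.6. The members that did not pass lay between percentile 17.4 (Slc4a4 probe A_52_P457567) and percentile 58.0 (Aqp4 probe A_51_P419319). Over the 6 arrays and 13709 other named genes, the centred values of Atp1b2 were closest to those of Lysmd1, Ugt1a6b and Emc7, with root mean square differences of 0.0139, 0.0188 and 0.0203 on the log2 scale. Ugt1a6b belongs to a gene cluster with shared exons, so its probe may read several of its transcripts. The genes closest to Gja1 were Nfia, Kif9 and Kdsr, with 0.0446, 0.045 and 0.0489.

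**Figure D3:**
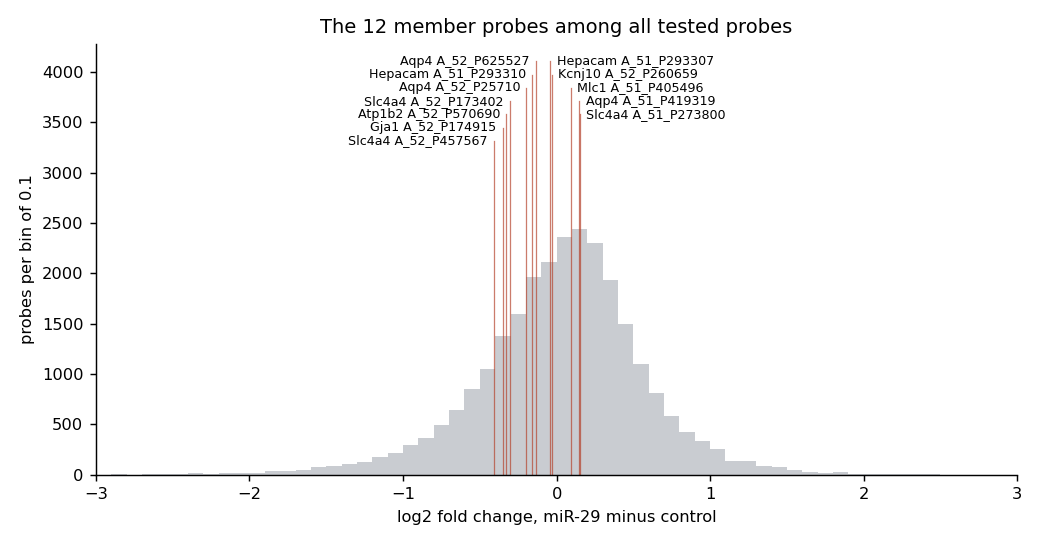
Number of tested probes in bins of 0.1 of the log2 fold change, miR-29 minus control (grey bars, the 26428 tested probes, of which those beyond 3 are not shown), with the 12 member probes as lines. The members lie between -0.41 and 0.15, within the bulk of the distribution but mostly on its lower side (median -0.15, against 0.061 for all tested probes).

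The proteins that work with the members were read from 6 lists with 65 genes, of which 53 were tested with 1 probe each. Of these 18 were lower, 16 higher and 19 did not pass, so 64.2% passed, beside 57.7% of all 19741 genes and transcripts so represented (23.6% lower and 34.1% higher). Spike-in scaling gave 30 lower and 8 higher, beside 53.7% of all passing (38.6% lower and 15.1% higher). The changes at least 2-fold in size were falls of Dag1, Fxyd5, Gjb2 (near background), Gprc5b and Slc16a1, and a rise of Kcnj16. Among all tested probes 7.09% reached that size in either direction.

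Of 13 tested water channels and anchoring genes 5 were lower and 4 higher, and the median fold change was -0.18 (by spike-in scaling, 7 lower and 1 higher). Dag1, the dystroglycan gene that ties the Aqp4 anchoring complex to the basement membrane, fell by 1.62 (SE 0.0459, adjusted p = 2.09e-05; -1.85 with its other probe). Agrn, a basement membrane ligand of dystroglycan, fell by 0.77. The water channel gene Aqp11 rose by 0.83, and the dystrobrevin gene Dtnb rose by 0.40 with this probe but had 0.023 with its other probe and did not pass with spike-in scaling.

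Of 8 potassium channel and cotransporter genes 1 was lower and 4 higher, and the median fold change was 0.035 (by spike-in scaling, 3 lower and 3 higher). Kcnj16, which encodes the Kir5.1 subunit that joins Kir4.1 in mixed channels, had levels of -2.20, -2.15 and -2.45 in the miR-29 arrays, against -3.73, -3.49 and -3.91 in the control arrays. It rose by 1.44 (SE 0.131, adjusted p = 0.000313; 0.71 with its other probe). Its ratio to Kcnj10 within an array, chosen after the values were seen, changed by 1.47 with no overlap (exact permutation p = 0.1, the smallest possible). Kcnk10, a two-pore potassium channel gene, rose by 0.74 and the cotransporter gene Slc12a7 by 0.49, and Kcnk1, another two-pore channel gene, fell by 0.56.

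Sodium pump genes also moved apart. Of 7 tested 3 were lower and 2 higher, and the median fold change was -0.15 (by spike-in scaling, 5 lower and 1 higher). Atp1b1, the more widely expressed beta subunit, fell by 0.39. Its ratio to Atp1b2, also chosen after the values were seen, changed by -0.059 with overlapping groups. The pump regulator genes Fxyd5 and Fxyd1 fell by 1.28 and 0.48.

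Of 7 tested connexin, pannexin and scaffold genes 3 were lower and 3 higher, and the median fold change was -0.082 (by spike-in scaling, 4 lower and 2 higher). Gjb2 (connexin 26) fell by 1.32 and Panx1, a channel related to gap junction proteins, by 0.76. The Gjb2 levels in the miR-29 arrays, -5.62, -5.45 and -5.17, were near background, and its other probe did not pass the filter. The size of its fall is therefore uncertain. The connexin gene Gja4 rose by 0.89. Of 8 anion channel genes and Mlc1 partners 4 were lower and 1 higher, and the median fold change was -0.36 (by spike-in scaling, 6 lower and 1 higher). Clcn2, the chloride channel that Hepacam binds, rose by 0.62. Lrrc8a, the required subunit of the volume-regulated anion channel, fell by 0.79, Gprc5b, a receptor found with Mlc1, by 1.08, and Cav1 by 0.46. Of 10 acid-base genes 2 were lower and 2 higher, and the median fold change was -0.087 (by spike-in scaling, 5 lower and 0 higher). The monocarboxylate transporter gene Slc16a1 fell by 1.05 and the carbonic anhydrase gene Car2 by 0.84. Car14 and Slc4a3 rose by 0.40 and 0.38, calls that did not pass with spike-in scaling.

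**Figure D4:**
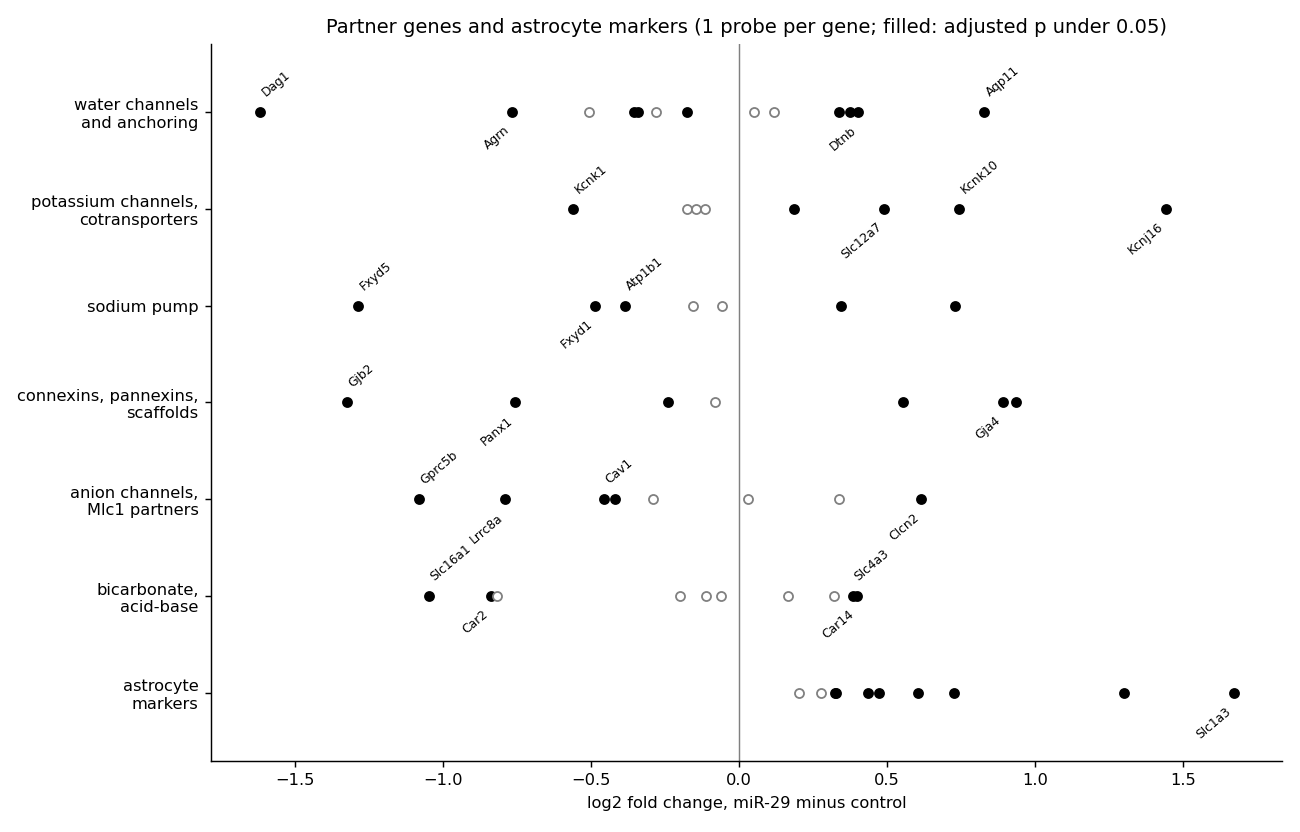
Log2 fold change, miR-29 minus control, of the tested genes of the 6 partner lists and of the astrocyte markers, 1 probe per gene, with the genes described in the text labelled; filled circles have a limma adjusted p under 0.05. Every partner list holds filled circles on both sides of 0, from Dag1 at -1.62 to Kcnj16 at 1.44, and the astrocyte markers all lie above 0.

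The labelled cell type was checked with 10 astrocyte markers, all above background on all arrays. Of these 8 rose and 0 fell, the median was 0.45 (with spike-in scaling 5 rose and 0 fell), and their summed level, in multiples of the array's 75th percentile, was 113 to 126 in the miR-29 arrays, against 79.7 to 83.9 in the control arrays. The glutamate transporter gene Slc1a3 rose by 1.67, and its ratio to Gja1, chosen after the values were seen, changed by 2.02 with no overlap (exact permutation p = 0.1). The microglia markers Aif1, Cx3cr1 and Ptprc were not above background on any array, and Itgam was on 2 control arrays only. Csf1r, P2ry12 and Tmem119 were above background on all arrays. Csf1r fell by 1.40 (0.36 with its other probe), Tmem119 fell by 0.44 and P2ry12 rose by 0.52. The summed level of the microglia list was 3.33 to 3.59 in the miR-29 arrays, against 4.48 to 5.06 in the control arrays, with 2 of 3 tested lower and 1 higher. The summed levels also count genes that were not tested, and the shares given here are of the tested genes alone. All sums are by the 75th percentile. Spike-in scaling moves every fold change by -0.239, so the direction of a small difference between sums can turn with the scaling. Tmem119 made up 96.4% to 97.5% of the tested microglia genes' sum in the miR-29 arrays and 95.5% to 97.8% in the control arrays. The microglia sum thus speaks for 1 gene. Fibroblast, meningeal and mural markers summed to 558 to 606 in the miR-29 arrays, against 496 to 538 in the control arrays, with 3 of 8 higher and 2 lower. These counts were the same with spike-in scaling. Acta2 made up 43.6% to 44.9% of the tested genes' sum in the miR-29 arrays and 31.7% to 33.3% in the control arrays. Acta2 and Tagln rose by 0.60 and 0.67, while Col1a1 and Pdgfrb fell by 1.29 and 0.68. The 2 other tested probes of Col1a1 gave larger falls, with fold changes of -3.94 and -3.26. Oligodendrocyte markers summed to 6.10 to 6.11 in the miR-29 arrays, against 5.22 to 5.33 in the control arrays. Of 8 tested 5 were higher and 3 lower (with spike-in scaling, 4 higher and 3 lower). Cnp made up 50.7% to 51.8% of the tested genes' sum in the miR-29 arrays and 43.0% to 44.3% in the control arrays. Neuron markers summed to 5.06 to 5.13 in the miR-29 arrays, against 5.12 to 5.30 in the control arrays, with 2 of 8 higher and 3 lower. Tubb3, which rose by 0.47, made up 63.5% to 64.5% of the tested neuron genes' sum in the miR-29 arrays and 43.7% to 46.2% in the control arrays. Endothelial markers summed to 1.90 to 2.03 in the miR-29 arrays, against 2.25 to 2.65 in the control arrays, with 2 of 4 higher and 1 lower. Flt1, the lower one (-0.37), made up 90.3% to 90.4% of the tested genes' sum in the miR-29 arrays and 93.0% to 94.7% in the control arrays. Ependymal and choroid markers summed to 1.71 to 2.00 in the miR-29 arrays, against 1.81 to 1.88 in the control arrays, with 1 of 3 higher and 0 lower. Foxj1, Ccdc153 and Dynlrb2 were above background on all arrays, and Ttr and Kl were not on any. The higher one was Foxj1 (0.18), which did not pass with spike-in scaling. It made up 60.4% to 67.8% of the tested genes' sum in the miR-29 arrays and 53.8% to 58.2% in the control arrays. The part of these cells in the members' values was not tested.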

How the data were processed

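Agilent Feature Extraction 10.7.3.1, per the file headers (10.7 in the submitters' processing notes), gave each spot's intensity, and the authors deposited a processed signal that is background-subtracted on a linear scale. The deposited value table holds the same intensity times 1 factor per array (2.63 to 3.43), linear and not centred; how the factor was set is unknown. The column medians for miR-29 replicates 1 to 3 were 149.3, 155.4 and 148.8, and for control replicates 1 to 3 they were 146.3, 164.8 and 162.2.

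Values were log2 of the processed signal (floor 1) less the 75th percentile of non-control probes on that array, with outlier spots left out and spots of 1 probe averaged. Probes well above background on all 3 arrays of a group were kept. Unversioned accessions matched 26933 of 41174 probes to 1 gene in the RefSeq table (GRCm38.p6), none to several and 14241 to no gene. Each probe was fitted with limma 3.58.1 (lmFit, eBayes; R 4.3.3), two-sided. Partner and marker genes used their brightest kept probe. The procedure was tested on simulated data.

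The members and lists were chosen with earlier results of these data known. Named were all members, from each partner list up to 4 genes past the threshold with the largest change and no overlap, and for a member that passed on all probes the 3 genes with the closest values. The alternatives were normexp (offset 50, on the median spot signal), quantile normalization, median centring, spike-in scaling, the deposited table, other filters, slide and replicate blocks, slide 1 alone, another variance model, 1 probe per gene, and each array left out. The number of arrays limits the precision. A few partner genes enter the counts but are not reported here by name.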

Additional observations from a re-analysis of the deposited data

How the results depend on the processing

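The deposited table and a filter on all 6 arrays left every member count and call as reported. Atp1b2 kept its call under all 18 alternatives, and Gja1 under all except the slide block and slide 1 alone. With the slide as a block and within slide 1 the values were the same by construction: Gja1 -0.31 (adjusted p = 0.0844 and 0.0907), Aqp4 probe A_51_P419319 -0.076, Slc4a4 probes A_52_P457567 0.066 and A_51_P273800 0.11, and, within slide 1 alone, A_52_P173402 -0.35 (adjusted p = 0.0771), which left 1 lower probe from 1 gene. With spike-in scaling, which shifts every probe alike, 8 probes from 5 genes were lower. Aqp4 probe A_51_P419319 gave -0.090, A_52_P625527 -0.37 and A_52_P25710 -0.44. Mlc1 gave -0.15, Hepacam -0.28 and -0.40, and Slc4a4 probes A_52_P457567 -0.65 and A_51_P273800 -0.088. Mlc1 was -0.026 with quantile normalization. Normexp gave -0.11 and 0.067 for Slc4a4 probes A_52_P173402 and A_51_P273800. Probe A_51_P273800 also lost its call at 0.17 with quantile normalization, 0.16 with median centring and 0.15 with no filter or a trended and robust variance. The member probes and genes called higher were therefore 0 under normexp, quantile normalization, median centring, spike-in scaling, no filter, the slide and replicate blocks, slide 1, the trended variance and 1 probe per gene, where that probe is not the one used. The causes of the other changes were not tested.

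Same-numbered arrays deviated from their group means with correlations of 0.143, 0.0991 and 0.271 over probes, each the highest for its array, which is a hint from the data and not a design. With the replicate block Aqp4 probe A_52_P25710 passed (-0.20, adjusted p = 0.0285) and Slc4a4 probe A_51_P273800 did not (0.15, adjusted p = 0.0541).

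Leaving out each array in turn gave the following log2 fold changes. Aqp4 ranged from 0.061 to 0.26, -0.20 to -0.065 and -0.26 to -0.15 for its probes in the order above. Kcnj10 ranged from -0.13 to 0.060 (the sign turned without miR-29 replicate 3), Atp1b2 from -0.34 to -0.30, Gja1 from -0.42 to -0.30 and Mlc1 from 0.046 to 0.16. Hepacam ranged from -0.071 to -0.023 and -0.25 to -0.11, and Slc4a4 from -0.65 to -0.24, -0.37 to -0.25 and 0.13 to 0.18. Between 2 and 4 probes and genes were lower and 0 to 1 higher.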

Other observations

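Of the 65 partner genes 12 were not tested. No probe was matched to Panx2. Genes not above background on any array included the water channel gene Aqp9, the potassium channel gene Kcnma1, the pump regulator gene Fxyd7, the connexin genes Gja3, Gjc3 and Gjd2, and the carbonic anhydrase gene Car4. Kcnj2, an inward rectifier gene, was above background on 1 miR-29 array and 0 control arrays, and the bicarbonate transporter gene Slc4a10 on 2 arrays of each group. Whether these low signals reflect low transcripts or weak probes was not tested.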
